A study of Carassius auratus with 9 samples.

Results

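LOC113048130 and LOC113063076 are 2 of the 76298 genes in the deposited muscle expression table of Hefang crucian carp (Carassius auratus), and both carry the name peroxisome proliferator-activated receptor alpha-like (PPAR alpha). They were chosen by what they are, and that choice was made with earlier results of these data known. LOC113048130 is the gene of the study's PPAR alpha primer, and LOC113063076 is a second gene of the same name. A further 5 genes are named PPAR alpha-like, 5 PPAR delta-like and 2 PPAR gamma-like. Fish received a commercial basal feed with nothing added (LA), the same feed with 1.7% methionine (Met) and 3.4% lysine (Lys) (MA), or with 3.4% Met and 3.4% Lys (HA), for 8 weeks. Muscle was sampled after a fast, and 3 poly(A)-enriched libraries per diet, called LA1 to HA3 below, were sequenced as paired-end reads. The MA and HA diets both differ from LA by added Lys as well as Met, so in a comparison with LA the amino acids cannot be told apart, whereas HA and MA differ in Met alone. Which fish or tank each library came from, and whether fish were pooled, is not given in the sources used here.

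PPAR alpha is a nuclear receptor that is switched on by fatty acids and their derivatives. It binds DNA as a pair with a retinoid X receptor (RXR), and in mammals it turns on genes for the uptake, activation and oxidation of fatty acids in tissues that burn fat, such as liver, heart and red muscle, most strongly during fasting. Goldfish and crucian carp descend from an ancestor whose genome was doubled, so most of their genes come in pairs of closely related copies.

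LOC113048130, whose RefSeq symbol is pparaa, lies on chromosome 29 of the goldfish assembly ASM336829v1, at 13487277 to 13532923 on the plus strand. It has 8 RefSeq transcript models and a listed length of 5490 bases. LOC113063076 lies on chromosome 4, at 22942879 to 22962185 on the plus strand, with 1 transcript model and a listed length of 2514 bases. No other gene of the table overlaps either copy. The next gene downstream is in both cases a gene for cysteine-rich DPF motif domain-containing protein 1, at 317 bases from LOC113048130 (cdpf1) and at 106 bases from LOC113063076 (LOC113063095). Among the 12 genes on each side, LOC113048130 has 19 distinct names and LOC113063076 has 15, and 6 of these names are shared. They are condensin-2 complex subunit H2, cyclin-dependent kinase inhibitor 1B, the DPF motif protein, plexin-C1, SCO2 and suppressor of cytokine signaling 2. The copies thus sit on 2 chromosomes, in stretches that at this width share some, but not most, of their neighbour names. Anywhere on the chromosome of the other copy, 15 of the 19 names around LOC113048130 are found, and 12 of the 15 around LOC113063076. How many names other pairs of chromosomes share was not counted. Reads from a stretch that is alike in the copies can be assigned to either, and how such reads were treated is not given in the sources used here.

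Total counts ranged from 13962770 to 17177610 per library. Fast-fibre genes defined the tissue: myosin light chain 3 of skeletal muscle (LOC113105153) had 20988 FPKM, and the summed fast-fibre markers had 50927 to 77241 CPM (read counts scaled to a common library size) in all 9 libraries, against 9.18 to 12.7 CPM for 20 hepatocyte markers, 7 of which were at 0 throughout. Where libraries 1 and 2 of a diet were 8-fold or more apart at a gene, library 3 lay well between them for 99.5% of such genes in LA, 100% in MA and 95.6% in HA, whereas libraries 1 and 2 never lay so between the other pair of their diet. LA1 and HA2 were also the most alike pair, with a median absolute log2 ratio of 0.147, against 0.213 to 0.463 in the other pairs. In the study's mapping table the libraries with the lowest mapped share of reads in their diet were LA1, MA2 and HA2. Those with the highest were LA2, MA1 and HA1, and library 3 stood between. After removal of diet means, each of the 9 libraries was closest to one of its own place in this order (residual correlations within a place 0.06 to 0.62). Results are therefore given also from libraries 1 and 2 alone, with neither LA1 nor HA2, and with the mapped-share order as a block.

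Both copies were expressed at a low level on every diet. LOC113048130 had 65, 51 and 61 counts in the LA libraries, 35, 41 and 51 in the MA libraries and 37, 74 and 66 in the HA libraries. Scaled by TMM, which corrects for library size and composition, these were 4.62, 3.36 and 4.37 CPM in LA, 2.24, 2.66 and 3.16 CPM in MA, and 2.26, 5.09 and 4.15 CPM in HA. All MA libraries were below all LA libraries, while the HA libraries spanned nearly the whole range, with HA1 as low as MA1 and HA2 the highest of the 9.

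LOC113063076 had 21, 25 and 32 counts in the LA libraries, 13, 6 and 10 in the MA libraries and 22, 12 and 23 in the HA libraries. On the CPM scale it had 1.49, 1.65 and 2.29 in LA, 0.831, 0.389 and 0.620 in MA, and 1.34, 0.826 and 1.44 in HA. The MA libraries were the lowest apart from HA2, which lay just below MA1, and every HA library was below every LA library. Counting error is wide at this depth: the 6 counts of MA2 have an exact 95% Poisson interval of 2.20 to 13.1 counts, and the 32 counts of LA3 one of 21.9 to 45.2. Such intervals cover counting error only.

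Between the lowest-mapped and the highest-mapped library of each diet, the copies differed in opposite directions. Library 3 stood between these 2 in mapped share. Its CPM lay between theirs in 2 of 3 diets for LOC113048130 and in 1 of 3 for LOC113063076. LOC113048130 was higher in the lowest-mapped than in the highest-mapped library in 3 of 3 diets, at 4.62 against 3.36 CPM in LA, 2.66 against 2.24 CPM in MA and 5.09 against 2.26 CPM in HA. LOC113063076 was lower in the lowest-mapped library in 3 of 3 diets, at 1.49 against 1.65 CPM in LA, 0.389 against 0.831 CPM in MA and 0.826 against 1.34 CPM in HA. For LOC113063076 the 95% Poisson intervals of the 2 counts overlapped in each diet. For LOC113048130 they overlapped in LA and MA but not in HA. How many of all tested genes differed in 1 direction in 3 of 3 diets was not counted. The part of the mapped share in the levels of the copies was not tested. The spread within diets, the share of each copy and the correlation of the copies, all given below, contain these differences.

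**Figure D1:**
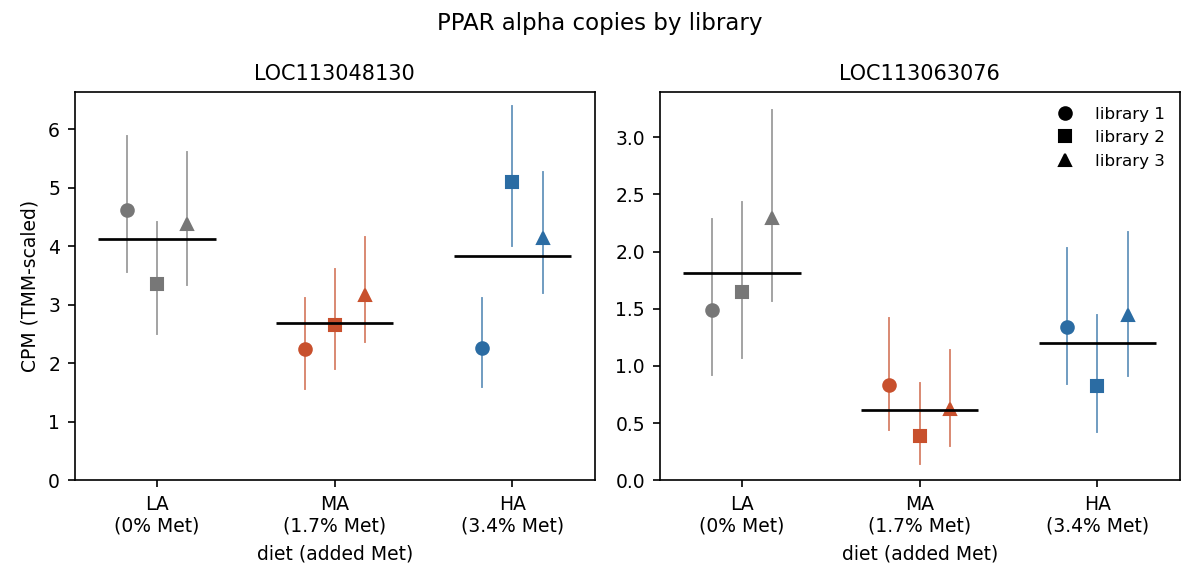
CPM (TMM-scaled) of LOC113048130 (left) and LOC113063076 (right) in each library of the LA, MA and HA diets. Symbols mark libraries 1, 2 and 3, thin lines are exact 95% Poisson intervals of the counts on the CPM scale, and black lines are diet means. The 3 MA libraries lie below the 3 LA libraries for both copies, and HA1 and HA2 lie apart for LOC113048130.

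The comparison of MA with LA asked how the receptor genes stood when Met and Lys were added at the middle Met level. LOC113063076 averaged 0.614 ± 0.221 CPM in MA and 1.81 ± 0.426 CPM in LA (SD, n = 3 each). Its log2 fold change was -1.55 (SE 0.41), which is 0.342 times the LA level with a 95% interval of 0.180 to 0.650. The unadjusted p of edgeR's quasi-likelihood test was 0.00399, and 1.79% of all tested genes had a p as small, but the Benjamini-Hochberg adjusted p was 0.222 and the gene was not called. LOC113048130 averaged 2.69 ± 0.463 CPM in MA and 4.12 ± 0.669 CPM in LA, a log2 fold change of -0.61 (SE 0.32) with an edgeR adjusted p of 0.503. Neither copy was called, where 0.0835% of the 23946 tested genes were. The libraries did not overlap for either copy, as was so, in this direction, for 8.43% of tested genes, and 52.3% of all tested genes had a negative fold change.

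A two-sided exact permutation test was also run, whose smallest possible p with 3 libraries on each side is 0.1, and it gave 0.1 for both copies in MA against LA. With DESeq2 the adjusted p of LOC113063076 was 0.0837, and with neither LA1 nor HA2 the edgeR adjusted p was 0.0872. From libraries 1 and 2 alone its log2 fold change was -1.34, with an unadjusted p of 0.0865 from edgeR. With the mapped-share order as a block it was -1.57 (SE 0.37, edgeR adjusted p = 0.0984). LOC113048130 had a log2 fold change of -0.70 from libraries 1 and 2 alone, -0.52 with neither LA1 nor HA2, and -0.61 with the block (SE 0.25, edgeR unadjusted p = 0.0357, adjusted p = 0.279). In bulk muscle, fewer cells of a type and less RNA per cell cannot be told apart.

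Against LA, the HA diet showed smaller differences. LOC113063076 averaged 1.20 ± 0.332 CPM in HA and 1.81 ± 0.426 CPM in LA. The log2 fold change was -0.58 (SE 0.39), with an edgeR adjusted p of 0.913 and an exact permutation p of 0.1. Its HA and LA libraries did not overlap in CPM, as for 4.97% of tested genes in this direction, but they did overlap in FPKM, which carries no composition factor: HA had 0.611, 0.302 and 0.618 FPKM and LA 0.527, 0.638 and 0.877 FPKM. LOC113048130 averaged 3.83 ± 1.44 CPM in HA and 4.12 ± 0.669 CPM in LA, with a log2 fold change of -0.10 (SE 0.31) and an edgeR adjusted p of 0.996. The 95% interval of this log2 fold change, from all libraries, was -0.81 to 0.60. Its direction depended on HA1: without that library the log2 fold change was 0.16. From libraries 1 and 2 alone the log2 fold changes were -0.53 for LOC113063076 and -0.12 for LOC113048130. With neither LA1 nor HA2 they were -0.49 and -0.27, and with the mapped-share block -0.60 and -0.15, in the same order of genes. No gene was called in this comparison (0.0% of 23946) by edgeR, although 1489 (6.22%) had an unadjusted p under 0.05 and DESeq2 called 49. MA against LA and HA against LA share the LA libraries.

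HA and MA, which differ in Met alone, were set against each other next. LOC113063076 was at 1.20 ± 0.332 CPM in HA and 0.614 ± 0.221 CPM in MA, a log2 fold change of 0.97 (SE 0.42) with an unadjusted p of 0.0437 (2404 tested genes, 10%, had one under 0.05) and an adjusted p of 0.482 from edgeR. LOC113048130 was at 3.83 ± 1.44 CPM in HA and 2.69 ± 0.463 CPM in MA, a log2 fold change of 0.51 (SE 0.32) with an adjusted p of 0.655 from edgeR. The libraries overlapped for both copies, and 0.0543% of tested genes were called. From libraries 1 and 2 alone the log2 fold changes were 0.81 for LOC113063076 and 0.58 for LOC113048130. With neither LA1 nor HA2 they were 1.17 and 0.25, and with the mapped-share block 0.97 and 0.46, in the same order of genes.

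Over the 3 diets together, the order of the mean CPM, from high to low, was LA, HA, MA for both copies. For LOC113048130 the LA and HA means lay within their spread, and the test of any difference gave an edgeR p of 0.181 (adjusted p 0.662). For LOC113063076 it gave an edgeR p of 0.0130, as small as in 3.73% of tested genes (10.8% had one under 0.05), and an adjusted p of 0.349. An exact permutation test over 280 arrangements gave 0.00714 for LOC113063076 and 0.232 for LOC113048130, where the smallest p possible was 0.00357. It takes the libraries as exchangeable, leaving out the mapped-share order, and is not adjusted over genes. How many of all tested genes reached such a p was not counted. Of all tested genes 0.0793% were called in this comparison. From libraries 1 and 2 of each diet, the edgeR p of LOC113063076 was 0.206.

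The variance of LOC113048130 among libraries of a diet was 3.83 times what counting alone gives, close to the median of 3.48 over 12877 genes with a mean count of 15 to 100. That of LOC113063076, which has fewer counts, was 1.34 times counting variance. This ratio grows with the mean count, and its difference between the copies was not tested.

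Because reads of one copy can be counted for the other, the copies were also added together. The summed level was 6.11, 5.00 and 6.67 CPM in LA, 3.07, 3.05 and 3.78 CPM in MA, and 3.60, 5.92 and 5.59 CPM in HA. The MA libraries lay below all LA libraries, which had to be so because this held for each copy alone. The mean log2 sum differed by -0.84 between MA and LA. Its exact permutation p of 0.1, the smallest possible, follows from that and is no separate result. The difference was -0.26 between HA and LA (exact p = 0.4) and 0.58 between HA and MA (exact p = 0.2). Over the 3 diets the exact permutation p was 0.05.

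To ask whether the copies shifted against each other, their levels were taken per length. LOC113048130 had 0.703 ± 0.0929 FPKM in LA, 0.500 ± 0.115 in MA and 0.712 ± 0.210 in HA, and LOC113063076 had 0.681 ± 0.179 in LA, 0.242 ± 0.0659 in MA and 0.510 ± 0.180 in HA. By count LOC113048130 was the higher in all 9 libraries, and in FPKM, which divides by the listed length, in 6 of 9. Its share of the FPKM of both copies was 58.6%, 48.3% and 46.6% in LA, 55.2%, 75.8% and 70.0% in MA, and 43.5%, 73.8% and 56.8% in HA. The mean share was 67.0% ± 10.6 in MA and 51.2% ± 6.51 in LA, a difference of 15.8 percentage points that did not pass the exact permutation test (p = 0.2). The difference was 6.87 points between HA and LA (exact p = 0.7) and -8.96 points between HA and MA (exact p = 0.5). Neither was larger in size than the SD of 15.2 points in HA, while 6.87 slightly exceeds the SD of 6.51 points in LA. A greater difference at LOC113063076 than at LOC113048130 in MA was therefore not shown.

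**Figure D2:**
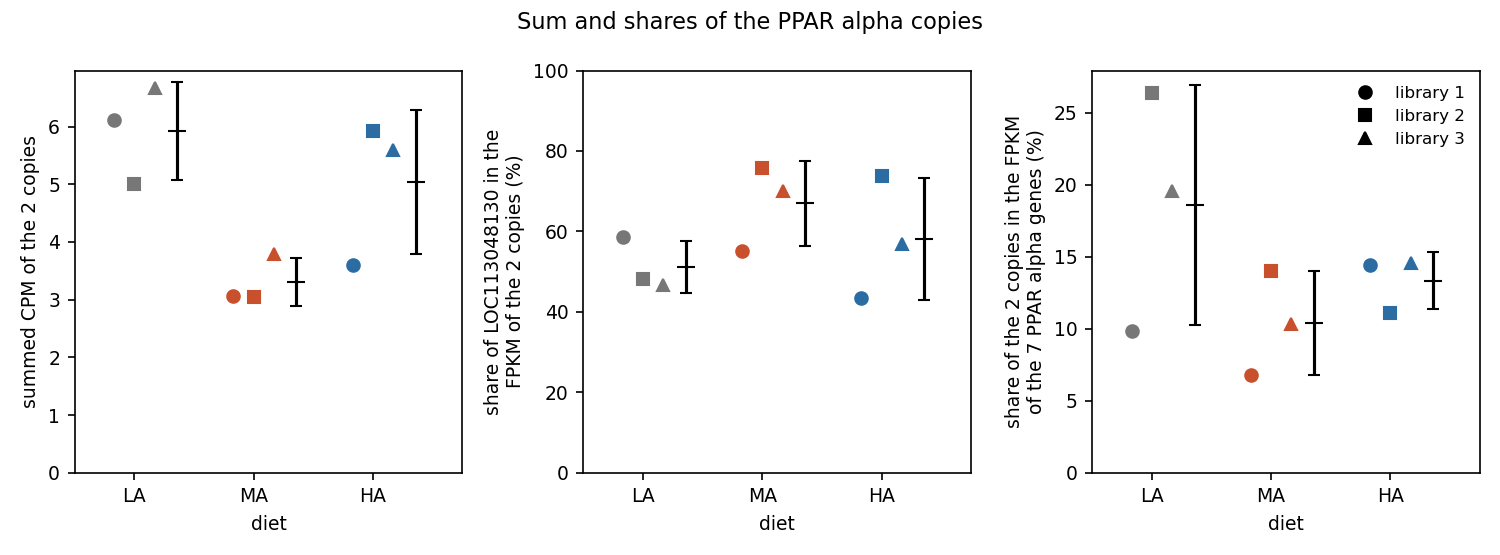
Left, summed CPM of the 2 copies. Middle, share of LOC113048130 in the FPKM of the 2 copies. Right, share of the 2 copies in the FPKM of all 7 genes named PPAR alpha. Symbols mark libraries, bars are means ± SD (n = 3). The sum is 3.05 to 3.78 CPM in MA and 5.00 to 6.67 CPM in LA, while the shares overlap between diets.

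Over the 9 libraries the log2 CPM of the copies had a Pearson r of 0.40 (exact permutation p = 0.289) and a Spearman rho of 0.37 (exact permutation p = 0.336). On the log2(FPKM + 1) scale r was 0.34 (exact permutation p = 0.371) and rho 0.43. With the diet means removed, r was -0.38 and rho -0.25. Without HA2 and MA1, the libraries farthest from the median of LOC113048130, r was 0.55 (exact permutation p = 0.199) and rho 0.71 (exact permutation p = 0.0881) over 7 libraries. The sign thus turned with the diet means, and these 4 settings of 1 relation were computed. The copies share libraries and, through ambiguous reads, may share counts.

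Neither copy was the main PPAR alpha gene of this muscle. LOC113042951, on chromosome 25, had 8.15, 1.00 and 4.25 FPKM in LA, 7.30, 2.59 and 5.14 FPKM in MA, and 4.33, 6.69 and 4.89 FPKM in HA, between 21.4% and 73.6% of all PPAR alpha FPKM in a library. Its level varied 69.2 times as much as counting alone gives within diets, and its log2 fold change in MA against LA was 0.07 (SE 0.66). The 2 copies together made up 6.78% to 26.4% of PPAR alpha FPKM. Next after LOC113042951 by mean came LOC113043023 (1.51 FPKM, also chromosome 25), then LOC113048130 (0.638 FPKM), LOC113063334 (0.533), LOC113063076 (0.478) and LOC113066601 (0.394), and last LOC113074400 (0.0699), which had 22 counts in all and was not tested. From LOC113048130 to LOC113066601 the ranges over the 9 libraries overlapped from each to the next. When all 7 genes were added, the mean log2 level differed by -0.28 between MA and LA (exact permutation p = 0.6), and the 3 diets gave an exact permutation p of 0.761.

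The other receptors of the family were PPAR delta, which in mammalian muscle is the more abundant form, and PPAR gamma, the receptor of fat cells. Of the PPAR delta genes LOC113100752 was the highest, with 0.945 ± 0.103 FPKM in LA, 0.996 ± 0.158 in MA and 1.24 ± 0.0481 in HA, above either alpha copy by mean. The other 4 had mean levels of 0.251 to 0.550 FPKM. Both PPAR gamma genes were near the floor, at 0.0705 and 0.139 FPKM, and neither passed the filter on low counts. None of the 4 other PPAR alpha and 5 PPAR delta genes tested was called or had an unadjusted p under 0.05 in any comparison. In MA against LA, 3 of the 4 other alpha genes and 4 of the 5 delta genes had a negative fold change, with medians of -0.59 and -0.09 on the log2 scale, against -0.03 over all tested genes.

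**Figure D3:**
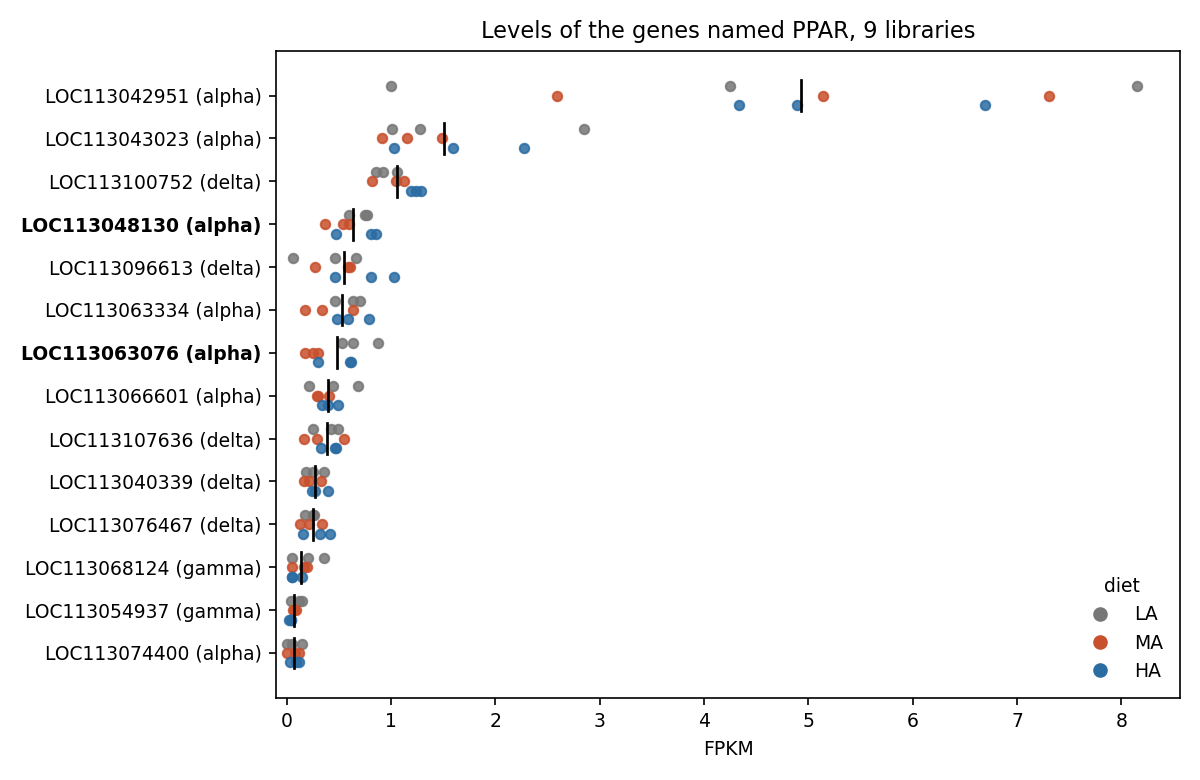
FPKM of the 14 genes named PPAR in the 9 libraries, coloured by diet. Black bars are means over all libraries, and the 2 copies are in bold. LOC113042951 spans 1.00 to 8.15 FPKM, while LOC113048130 and LOC113063076 lie below 0.9 FPKM in every library.

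RXR is the DNA-binding partner of PPAR alpha. Of 15 RXR genes, 13 were tested, none was called, and 2 had an unadjusted p under 0.05 in MA against LA, both lower in MA, where 11.5% of all tested genes had such a p and 6.18% were lower with one. They were LOC113045801 (RXR-gamma-A-like), with a log2 fold change of -2.08 (SE 0.85, edgeR adjusted p = 0.386) on 13 counts in MA and 52 in LA, and LOC113116293 (RXR-beta-B-like), with -0.85 (SE 0.36, edgeR adjusted p = 0.401). LOC113116293 had 3.52, 1.62 and 2.23 CPM in MA and 5.61, 3.62 and 4.09 CPM in LA, without overlap, as for 8.43% of tested genes in this direction. Per length the highest RXR genes were above the copies: the RXR-gamma-A-like gene LOC113114593 averaged 16.1 FPKM, RXR-gamma-B-like LOC113062973 averaged 6.80 FPKM, and RXR-alpha-A-like LOC113064320 averaged 4.23 FPKM. LOC113114593 and LOC113116088 (RXR-gamma-A) varied so widely within diets (LOC113116088 had 18.7, 2.40 and 11.6 CPM in MA and 0.498, 6.06 and 3.59 CPM in LA) that no difference was detectable. The lowest were LOC113079771 and LOC113045801, at 0.321 and 0.426 FPKM, below both copies by mean. The 13 RXR genes had a median log2 fold change of 0.01 in MA against LA.

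**Figure D4:**
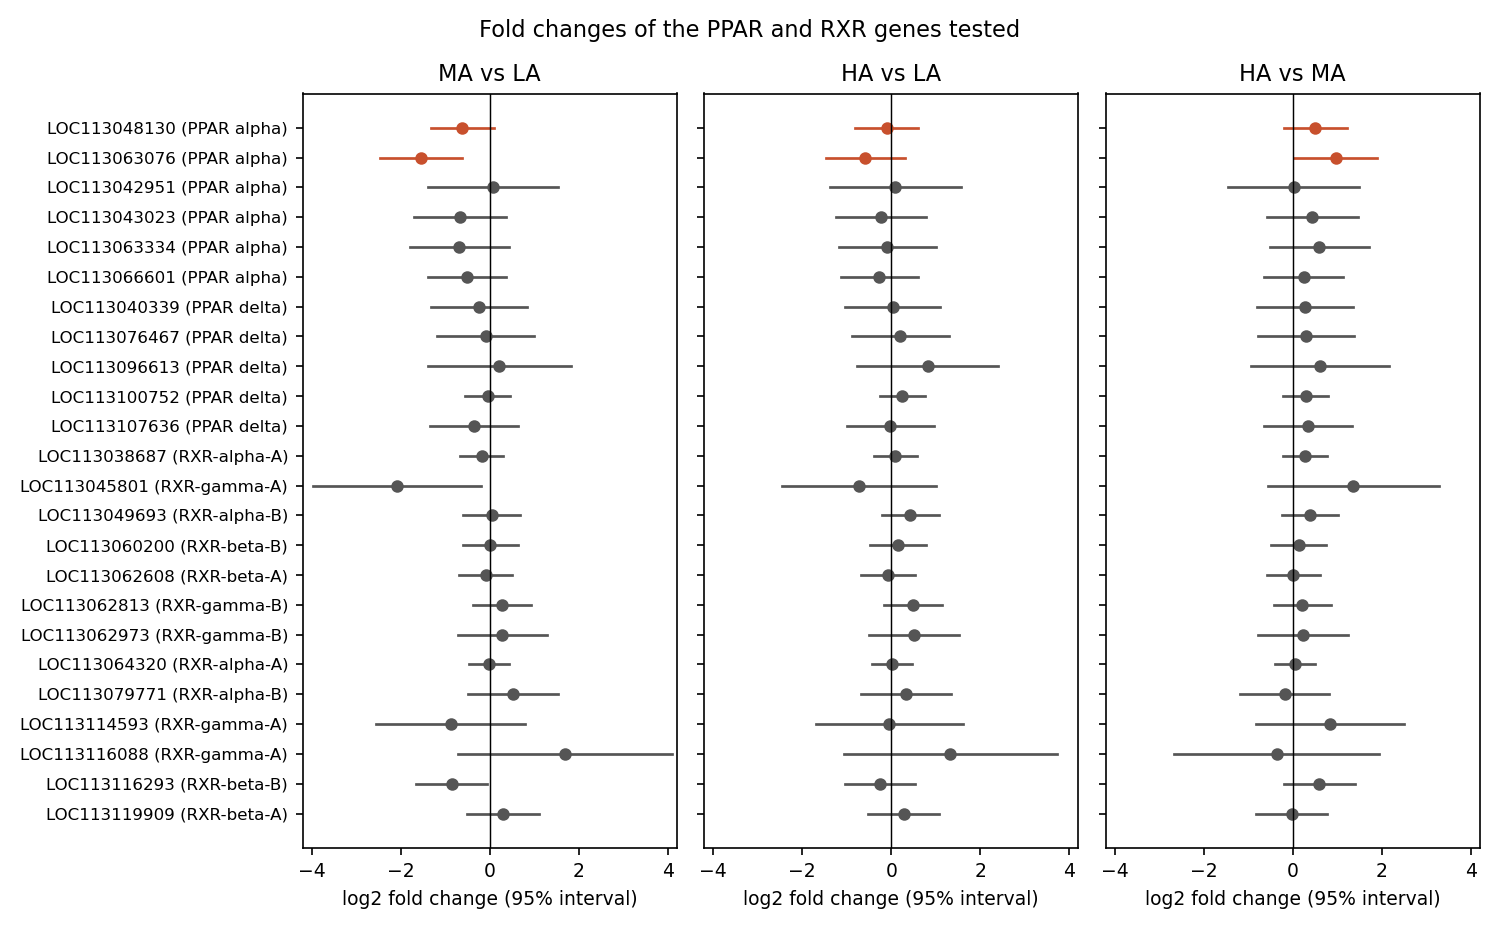
Log2 fold changes with 95% intervals (edgeR) for the 2 copies (red) and the other PPAR and RXR genes tested (grey), in MA against LA, HA against LA and HA against MA. In MA against LA the interval of LOC113063076 runs below 0 and that of LOC113048130 reaches 0.10, and no gene shown was called.

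The coregulators that bind PPAR alpha were taken next. Of 22 tested, none was called in any comparison by edgeR, and 1 had an unadjusted p under 0.05 in MA against LA, where 11.5% of all tested genes had one. In HA against LA 3 had one (6.22% of all tested genes), and in HA against MA 2 had one (10%). The gene in MA against LA was LOC113057868, a PGC-1 beta-like gene whose mammalian counterpart boosts transcription of mitochondrial genes, and it had 13.9, 16.9 and 14.1 CPM in MA and 5.83, 9.28 and 8.46 CPM in LA (log2 fold change 0.93, SE 0.33, edgeR adjusted p = 0.328). Another PGC-1 beta gene, ppargc1b, had 8.96 ± 1.10 CPM in MA and 9.58 ± 1.63 CPM in LA, and was at 6.30 ± 1.18 CPM in HA (log2 fold change -0.60 against LA, edgeR adjusted p = 0.717). The lipin-1-like gene LOC113117391 had a log2 fold change of 1.08 in HA against LA (edgeR adjusted p = 0.774).

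Genes of families in which PPAR alpha turns on members in mammals were read beside the copies, in 4 groups. They were matched by gene name, so not each is a known target. In all, 147 genes of the pathway lists were tested, partners and coregulators included and the 2 copies left out. None was called by edgeR, although in MA against LA it called 2 with no filter on low counts, 2 with neither LA1 nor HA2, and 1 each without MA1 and without HA2. In these settings, in the same order, edgeR called 542, 542, 83 and 40 of all genes tested. In MA against LA 22 had an unadjusted p under 0.05, 16 higher and 6 lower in MA. Of all tested genes 11.5% had such a p, 5.3% higher and 6.18% lower. DESeq2 called 4 of the 147 in this comparison, and 440 of all 23946 tested genes.

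In mitochondrial beta-oxidation, 32 genes were tested, with a median log2 fold change of -0.01 in MA against LA. Of these, 2 had an unadjusted p under 0.05 there, 1 higher and 1 lower, where 11.5% of all tested genes had one. LOC113120669, for the beta subunit of the trifunctional enzyme that carries out the last steps of the cycle, had 6.91, 5.64 and 6.39 CPM in MA and 9.67, 13.4 and 11.1 CPM in LA (log2 fold change -0.85, SE 0.20, edgeR adjusted p = 0.171). In HA it had 14.2, 11.5 and 12.5 CPM, and so, like both copies, it had its lowest mean in MA. DESeq2 gave it an adjusted p of 0.00591 over the 3 diets. LOC113061868, a long-chain acyl-CoA dehydrogenase-like gene, had its highest level in MA instead, at 2.01 ± 0.410 CPM against 0.333 ± 0.297 CPM in LA (edgeR adjusted p = 0.380). Similarly 2,4-dienoyl-CoA reductase-like LOC113059473, needed for unsaturated fatty acids, was at 2.18 ± 0.209 CPM in MA and 1.33 ± 0.365 CPM in LA (edgeR adjusted p = 0.466). The beta subunit of electron transfer flavoprotein (LOC113059368), which takes up electrons from the dehydrogenases, was at 21.5 ± 3.11 CPM in MA and 15.3 ± 8.08 CPM in LA (edgeR adjusted p = 0.681).

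In peroxisomal oxidation, 9 genes were tested. Catalase-like LOC113043710, which breaks down the hydrogen peroxide that this pathway makes, was at 17.7 ± 3.86 CPM in MA and 24.3 ± 5.09 CPM in LA (edgeR adjusted p = 0.483). The genes for peroxisomal membrane protein 11A, LOC113091626 and LOC113061617, had 80 and 73 counts in all and log2 fold changes of 0.68 and 1.10. The 9 genes had a median log2 fold change of -0.19 in MA against LA, and none had an unadjusted p under 0.05 there.

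Uptake and activation of fatty acids gave 8 of 28 tested genes with an unadjusted p under 0.05 in MA against LA, 6 higher and 2 lower. Over all tested genes the share with such a p was 11.5%, 5.3% higher and 6.18% lower. Lipoprotein lipase-like LOC113040152, which frees fatty acids from circulating lipoproteins, had 4.03, 5.12 and 5.15 CPM in MA and 1.35, 2.70 and 2.94 CPM in LA (log2 fold change 1.03, SE 0.33, edgeR adjusted p = 0.273), and a second such gene, LOC113040163, was at 3.73 ± 2.30 CPM in MA and 1.56 ± 0.575 CPM in LA. Acyl-CoA ligase 4-like LOC113114186, which activates fatty acids for use, was at 11.9 ± 5.86 CPM in MA and 4.71 ± 2.66 CPM in LA (edgeR adjusted p = 0.297). Fatty acid transport protein 1-like LOC113075314 went the other way, with 3.52, 4.93 and 4.90 CPM in MA and 9.45, 8.82 and 8.53 CPM in LA (log2 fold change -1.01, SE 0.24, edgeR adjusted p = 0.171).

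Fuel-switch genes were the last group, among them pyruvate dehydrogenase kinases, uncoupling proteins and acyl-CoA thioesterases. Of 34 tested, 9 had an unadjusted p under 0.05 in MA against LA, 8 higher and 1 lower. Such a p was found in 11.5% of all tested genes, 5.3% higher and 6.18% lower. The group had a median log2 fold change of 0.30 in MA against LA. Uncoupling protein 2-like LOC113054374 had 6.01, 14.1 and 10.1 CPM in MA and 2.84, 2.83 and 3.44 CPM in LA (log2 fold change 1.73, SE 0.33, edgeR adjusted p = 0.118). Pyruvate dehydrogenase kinase 2-like LOC113111491, whose mammalian counterpart blocks the entry of pyruvate into the citric acid cycle, had 7.61, 6.62 and 6.76 CPM in MA and 1.85, 2.11 and 2.73 CPM in LA (log2 fold change 1.65, SE 0.41, edgeR adjusted p = 0.202). For both genes the MA libraries were the highest on any diet, the reverse of the order seen for LOC113063076. The largest differences with HA in this group were at low levels: acot12 was at 0.0662 ± 0.0690 CPM in HA and 0.552 ± 0.489 CPM in LA, and a second uncoupling protein 2-like gene, LOC113054371, at 0.104 ± 0.131 CPM in HA and 0.644 ± 0.126 CPM in LA (edgeR adjusted p = 0.785 and 0.709). With DESeq2 LOC113054374 and LOC113111491 had adjusted p of 0.000559 and 0.0319 over the 3 diets. Among the genes named from these 4 groups, some had their lowest and others their highest mean in MA. They were picked by smallest 3-diet p, and whether the copies act on them was not tested.

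**Figure D5:**
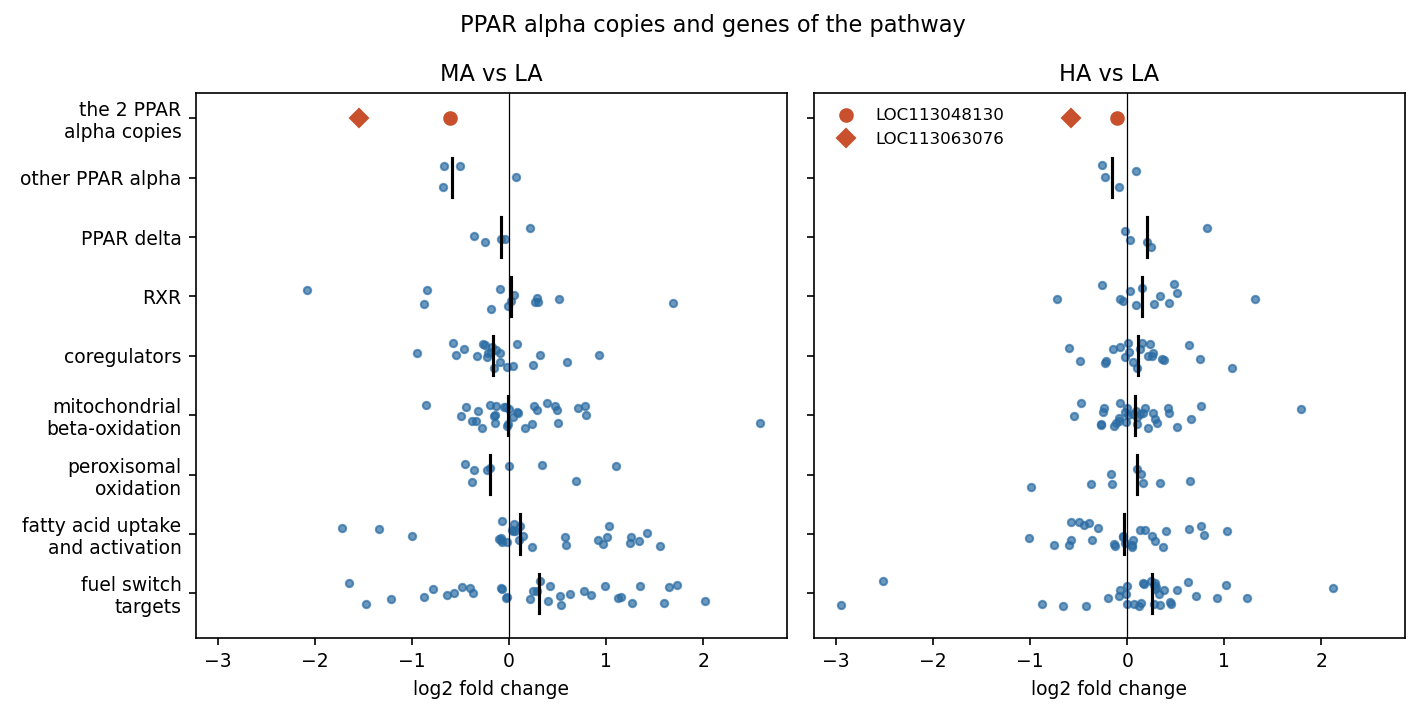
Log2 fold changes of the 2 copies (red) and of the tested genes of each pathway list (blue) in MA against LA and HA against LA. Each blue point is a gene and black bars are medians of a list. The medians lie between -0.59 and 0.30 in MA against LA, and LOC113063076 lies at -1.55.

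Marker levels of other cells were read beside the copies, and none of the markers of these other cells was called by edgeR. Of the 14 fast-fibre markers tested, 1 was called over the 3 diets (edgeR adjusted p = 0.0262), where 0.0793% of all tested genes were. The 11 leukocyte markers (CD45-, coronin-1A- and plastin-2-like genes) summed to 49.6 to 56.5 CPM in MA and 55.3 to 57.9 CPM in HA, against 64.3 to 166 CPM in LA. All 6 tested had negative fold changes in both comparisons with LA. Of these, 5 had an unadjusted p under 0.05 in MA against LA and all 6 in HA against LA. Of all tested genes 11.5% had such a p in MA against LA, 6.18% lower, and 6.22% in HA against LA. None of the 11 was at 0 throughout. The 8 markers of myelinated nerve summed to 229 to 322 CPM in MA, 138 to 165 CPM in HA and 115 to 161 CPM in LA. All 8 were tested and had positive fold changes in MA against LA. Of these, 6 had such a p there, all higher, as did 5.3% of all tested genes (smallest edgeR adjusted p 0.0522). The 35 slow-fibre markers, 7 of them tested, summed to 57.4 to 324 CPM in MA, 43.4 to 86.9 in HA and 30.0 to 39.7 in LA. Of the 7, 4 had such a p in MA against LA, all higher. The 9 adipocyte markers summed to 39.3 to 52.3 CPM in MA, 35.8 to 48.2 CPM in HA and 27.7 to 38.9 CPM in LA. Of 4 tested, 2 had such a p in MA against LA, both higher. Erythrocyte markers, 11 of 24 at 0, summed to 674 to 977 CPM in MA, 527 to 1053 in HA and 548 to 727 in LA. These erythrocyte ranges overlap, and none of the 6 tested had such a p in MA against LA. The part of all these markers in the levels of the PPAR alpha copies was not tested.

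The genes whose profile over the 9 libraries was most like that of each copy were found by the root mean square (RMS) difference of centred log2 CPM, over 10519 genes with a name and a mean count of at least 50. For LOC113048130 the nearest was LOC113117727, a dual specificity phosphatase 23-like gene, with an RMS difference of 0.141, followed by nuclear factor 1 A-type (LOC113040110, 0.146), importin-13-like LOC113093339 (0.157), probetacellulin-like LOC113038655 (0.161) and a C4orf54 homolog (LOC113052269, 0.162). The median over all genes was 0.507. Nuclear factor 1 A-type had 20.7 ± 2.82 CPM in LA, 16.0 ± 2.26 in MA and 19.6 ± 6.48 in HA. With a lower bound of 10 on the mean count the same 5 genes were found.

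Among the 5 nearest genes for LOC113063076 were the nuclear receptor ROR-beta-like LOC113107969 (RMS difference 0.278), AMP-activated protein kinase alpha-2-like LOC113063291 (0.301), a phosphatidylinositol trisphosphate phosphatase 1-like gene (LOC113099025, 0.307) and NRas-like LOC113106980 (0.316), where the median over all genes was 0.737. LOC113063291, for a catalytic subunit of the kinase that senses low energy, had 6.85 ± 1.27 CPM in LA, 2.40 ± 0.807 in MA and 4.66 ± 0.171 in HA. It was picked for its likeness over these same libraries, so its order of diets is no separate result. None of the 5 was among the nearest once genes with a mean count of 10 or more were allowed, so for the lower-count copy the choice of neighbours rests on that bound. The RMS difference between the copies was 0.621. The nearest other PPAR alpha gene was LOC113043023 for LOC113048130 (0.346) and LOC113063334 for LOC113063076 (0.460).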

How the data were processed

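Counts and FPKM per gene and library were taken as deposited: the authors' table holds whole-number read counts and the authors' FPKM, which equals the count divided by the listed length of the gene and the total count of its library. Count columns were tied to diets by the sample descriptions, where the code HA stands for an LA library, HB for MA and HC for HA. The submitters' processing notes name DESeq2. The aligner, the counter, the strand setting and the treatment of ambiguous reads are not stated there or in the other sources used.

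Counts of 9 libraries (13962770 to 17177610 each) were fitted with edgeR 4.0.16 in R 4.3.3: TMM, filterByExpr (23946 genes kept), quasi-likelihood with diet as the only term (6 residual degrees of freedom) and Benjamini-Hochberg adjustment over all tested genes at 0.05. The procedure was tested on simulated data. Changes were planted there only in genes with a higher mean count than LOC113063076, in libraries drawn independently. That test therefore does not cover detection at the depth of this copy. Sums, shares and correlations used exact permutation tests (scipy 1.17.1), two-sided. The study's methods speak of 3 biological replicates per diet, but the labels do not tie libraries to fish, so p-values measure the spread between libraries, part of which may be technical. The 2 genes, the gene lists and the tests were chosen with earlier results of these data known.

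Genes named are the copies, all PPAR and RXR genes tested, up to 4 genes of smallest 3-diet p per other pathway list, and for each copy the 5 named genes of smallest RMS difference (mean count 50 or more). Marker lists and the marker gene named with them serve as checks of tissue. Alternatives were RLE size factors, no filter, at least 10 counts in every library, DESeq2 1.42.0, the 2 diets alone, a replicate block, limma-trend (limma 3.58.1) on log2(FPKM + 1) and leaving out each library; 2 sets of libraries, and a block on the order of libraries within a diet by mapped share of reads, were added after seeing the data. Some genes that this rule names are not reported here. No sequence is printed. The study's other measurements were not analysed here.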

Additional observations from a re-analysis of the deposited data

How the results depend on the processing

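Neither copy was called in any comparison under any alternative. For LOC113063076 in MA against LA, log2 fold changes ranged from -1.82 to -0.43 (edgeR, DESeq2 or limma adjusted p 0.0837 to 1.00), the smallest in size being on the log2(FPKM + 1) scale, where a pseudocount of 1 exceeds the level itself; leaving out 1 library gave -1.82 to -1.32. With at least 10 counts in every library this gene was not tested. For LOC113048130 leaving out 1 library gave -0.74 to -0.50 in MA against LA. Its HA against LA direction reversed with limma-trend (0.0012) and without HA replicate 1 (0.16), and leaving out 1 library gave -0.36 to 0.16. The share of LOC113048130 in HA against LA reversed without HA replicate 2 (-1.03 percentage points), where leaving out 1 library gave -1.03 to 14.1. The cause of these reversals was not tested.

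The number of genes called of all tested moved far more. It was 542, 119, 321 and 753 (for MA and then HA against LA, HA against MA, and all 3 diets) with no filter, and 440, 49, 296 and 543 with DESeq2. In MA against LA it was 8 with the 2 diets alone. With neither LA1 nor HA2 it was 542, 219, 75 and 597, from libraries 1 and 2 of each diet alone it was 0 throughout, and with the mapped-share order as a block it was 116, 4, 98 and 96. Leaving out 1 library gave 0 to 293 genes in MA against LA, 0 to 175 in HA against LA, 0 to 75 in HA against MA and 0 to 336 over the 3 diets, with the highest counts without LA1, except without MA1 in HA against MA.

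Replicate numbers did not pair the libraries: within a number, residual correlations ran from -0.60 to 0.27, and for 5 of 9 libraries the closest one carried the same number. With the replicate number as a block 4 genes were called in MA against LA, 0 in HA against MA and 3 over the 3 diets, and LOC113063076 in MA against LA had a log2 fold change of -1.58 (edgeR adjusted p 0.399). Of the 147 pathway genes edgeR called 1 with the mapped-share block, in HA against MA, where it called 98 of all tested genes.

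At 6 to 32 counts per library for LOC113063076, and 35 to 74 for LOC113048130, precision is limited, and a p that misses the threshold does not show equal levels. With 3 libraries per diet, the spread between libraries is itself poorly known. Library 3 lay between the others at nearly all genes where those were 8-fold or more apart. For the copies it did so in 2 of 3 diets (LOC113048130) and 1 of 3 (LOC113063076). Reads shared by the copies add an error that counting intervals leave out.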
